A study of Mus musculus with 24 samples.

Results

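RNA of a line of MC38 mouse colorectal cancer cells that is labelled as overexpressing FUT4 was compared with RNA of the mock line MC38-MOCK#2, gene by gene. Both lines come from C57BL/6 mouse MC38 cells, were grown with puromycin and are labelled with the CRISPR-dCas-VPR technique for gene overexpression. The FUT4-labelled line has FUT4 as its target gene and MC38-MOCK#2 has none. In this technique a Cas9 that does not cut carries transcriptional activators to the promoter that a guide RNA selects. Whether either line is a clone or a bulk population is not given in the sources used here. The FUT4-labelled line was sampled 3 times, at passages 7, 8 and 7, and MC38-MOCK#2 3 times, at passages 6, 7 and 8. The series holds 24 samples of 8 lines, and the other 18 samples (MC38-FUT9, MC38-MOCK#1, MC38-WT, MC38-CMAS KO, MC38-COSMC KO and MC38-DKO) serve here to show where the levels of both lines stand. Of 52636 genes in the table, 21734 had at most 4 zeros among the 6 samples and were tested. The values are read counts that the authors scaled by a factor per library and rounded, called normalized counts below.

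Fut4 and Fut9 encode α1,3-fucosyltransferases, Golgi enzymes that add fucose to N-acetyllactosamine (LacNAc) chains and so build the Lewis X antigen. They draw on GDP-fucose, which is made in the cytosol and carried into the Golgi, and on acceptor chains that galactosyltransferases and N-acetylglucosaminyltransferases extend. Sialyltransferases cap the same chains. Other family members attach fucose to the N-glycan core (Fut8) or directly to proteins (Pofut1 and Pofut2).

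RNA of the labelled target was close to absent. Fut4 (ENSMUSG00000049307, chromosome 9 of GRCm38, 14748320 to 14752393, minus strand) was at 0, 0 and 0 normalized counts in MC38-MOCK#2 and at 1, 0 and 1 in samples 1, 2 and 3 of the FUT4-labelled line. It was at 0 in all other 18 samples. Both lines lie at or under the floor of 3 reads over the 3 libraries of a line, so no fold is given, and Fut4 was no differentially expressed gene (DEG, limma adjusted p = 0.297). Without sample 2 of the FUT4-labelled line, the one at 0, the limma adjusted p was 0.032, and 3 genes of the family were called higher instead of 1. None of the 4025 different stretches of 50 bases in the annotated Fut4 transcripts occurred in a transcript of another gene, 50 bases being the length of the reads. The label thus goes against the RNA, and every direction below is that of the line labelled FUT4, not of a line shown to express Fut4.

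Fut9 rose instead. This gene (ENSMUSG00000055373, chromosome 4, 25609332 to 25800244, minus strand) had 0, 0 and 1 normalized counts in MC38-MOCK#2 and 209, 171 and 186 in the FUT4-labelled line. The ratio of its reads was 546 (95% exact interval 97.6 to 21597, counting error only), and its log2 fold change of 7.23 was called (standard error 0.361, limma adjusted p = 0.000148). In MC38-FUT9, the line labelled for Fut9, it stood at 641 to 955, above the FUT4-labelled samples. It did not exceed 7 in the remaining lines. No other protein-coding gene starts within 500 kb of the start of Fut9, and none of its 13823 stretches of 50 bases is shared with another gene.

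Of the 10 fucosyltransferase genes tested, 1 was called higher and 1 lower, where 8.1% of all tested genes were called higher and 8.04% lower. The one that fell is Fut11, a fucosyltransferase of the endoplasmic reticulum, with 91, 94 and 109 normalized counts in MC38-MOCK#2 and 27, 26 and 19 in the FUT4-labelled line. On the log2 scale it differed by -2.0 (standard error 0.201, limma adjusted p = 0.00138). Levels of Fut11 in MC38-MOCK#1 (16 to 27) and MC38-DKO (14 to 29) overlapped those of the FUT4-labelled line, and no other line reached the MC38-MOCK#2 range. Among the genes at higher levels, Fut8 had 168, 201 and 283 normalized counts in MC38-MOCK#2 and 338, 227 and 297 in the FUT4-labelled line (limma adjusted p = 0.268). Fut10, Pofut1 and Pofut2 had log2 fold changes of -0.21, 0.03 and 0.23 and were not called. Fut1, Fut2 and Fut7 stayed at 4 or fewer normalized counts in all 6 samples. Per kilobase of exon, Pofut1 had the highest level of the family in the FUT4-labelled line (152 normalized counts per kb), followed by Pofut2 (90.2), Fut10 (58.2), Fut8 (36.4), Fut9 (13.6) and Fut11 (5.64).

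**Figure D1:**
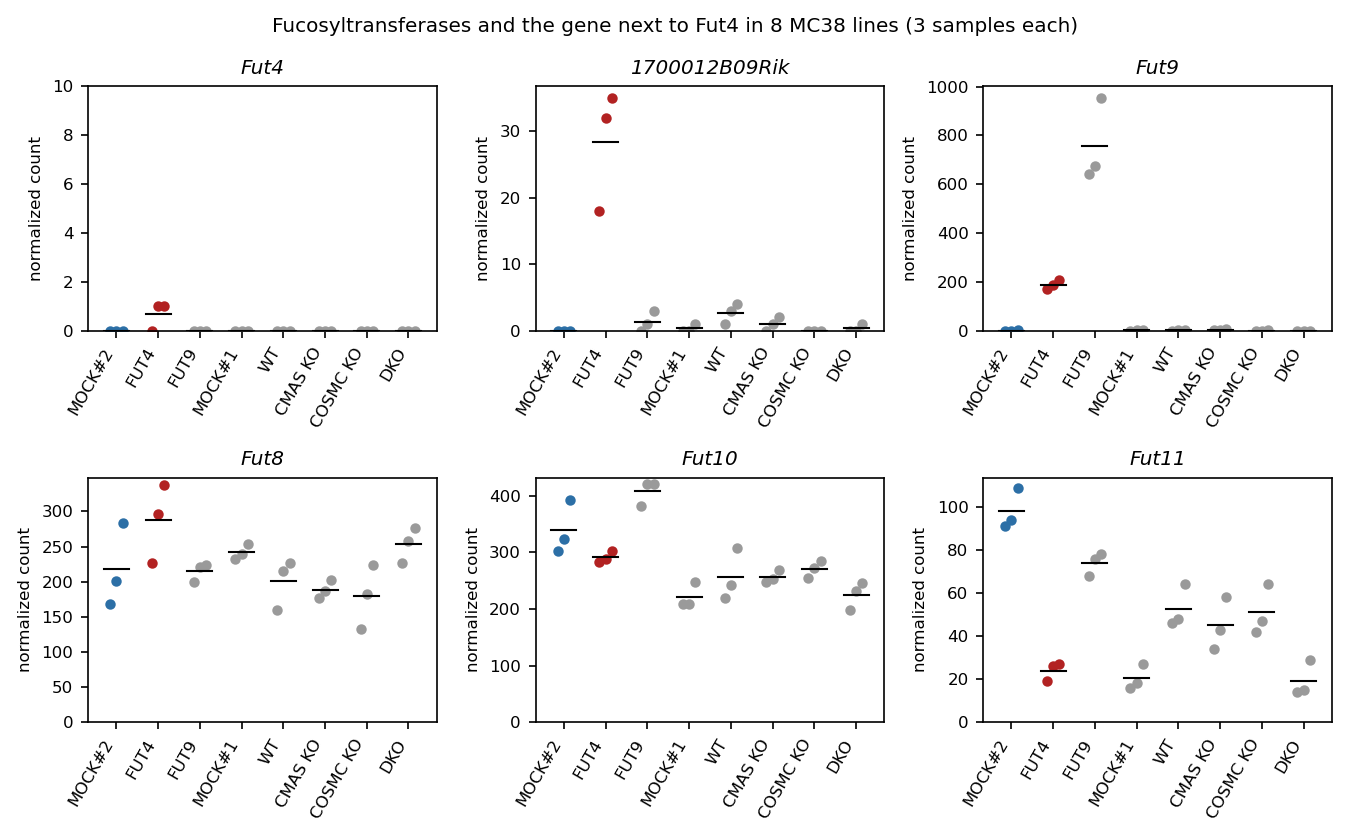
Normalized counts (vertical axes, different scales) of Fut4, its neighbour 1700012B09Rik and 4 fucosyltransferases in the 3 samples of each of 8 lines. Points are samples and bars are means. Fut4 is at most 1 everywhere, 1700012B09Rik is at 18 to 35 in the FUT4-labelled line and at most 4 elsewhere, and Fut9 is at 171 to 209 in the FUT4-labelled line and 641 to 955 in MC38-FUT9.

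Genes next to Fut4 were read in the same way. Of 14 other protein-coding genes that start within 500 kb of the start of Fut4, 9 were tested, and 2 rose and 1 fell, where 16.1% of all tested genes were called in either direction. 1700012B09Rik, an uncharacterized gene on the same strand that starts 18.6 kb before Fut4, was at 0 in all 3 MC38-MOCK#2 samples and at 18, 35 and 32 normalized counts in the FUT4-labelled line. It was at least 26.4-fold higher against the floor of 3 reads over the MC38-MOCK#2 libraries (limma adjusted p = 0.000615). In the other 18 samples it did not exceed 4. Panx1, which encodes the channel protein pannexin 1 and starts 293.1 kb away, had 149, 133 and 121 normalized counts in MC38-MOCK#2 and 284, 302 and 276 in the FUT4-labelled line (log2 fold change 1.1, limma adjusted p = 0.0013). Its range in the other 18 samples was 115 to 240. Sesn3, a stress-responsive sestrin 477.3 kb away on the other side, fell by 0.95 on the log2 scale (limma adjusted p = 0.0174). It had 278, 329 and 459 against 183, 159 and 198 normalized counts. The other 18 samples held 152 to 255, so MC38-MOCK#2 was the line that stood apart. The call was lost without any 1 FUT4-labelled sample or without sample 2 of MC38-MOCK#2. Piwil4, which starts 11.7 kb beyond Fut4 and encodes a Piwi protein, had 2, 4 and 13 against 21, 16 and 22 normalized counts and missed the threshold (limma adjusted p = 0.0835). Mre11a and Ankrd49, which start 32.3 and 32.5 kb upstream of Fut4, had log2 fold changes of 0.07 and -0.08.

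Below, 250 bases before the RefSeq start of 3 genes are given 5′ to 3′ on the strand of the gene (RefSeq, build GRCm38.p6), with CG in capitals. 1700012B09Rik (chr9:14771031-14771280, minus strand) is shown as the gene next to Fut4 that went from 0 reads to a measurable level. Krt20 (chr11:99438154-99438403, minus strand) is shown as the gene with the largest rise. Pnrc2 (chr4:135873847-135874096, minus strand) is shown for the falls: of those with an annotated start within 10 bases of the RefSeq start it is the one taken here.
1700012B09Rik: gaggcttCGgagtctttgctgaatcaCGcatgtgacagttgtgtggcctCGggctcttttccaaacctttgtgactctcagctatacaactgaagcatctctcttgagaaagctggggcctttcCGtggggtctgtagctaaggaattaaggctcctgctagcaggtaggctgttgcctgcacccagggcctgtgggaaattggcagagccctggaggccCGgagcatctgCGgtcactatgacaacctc
Krt20: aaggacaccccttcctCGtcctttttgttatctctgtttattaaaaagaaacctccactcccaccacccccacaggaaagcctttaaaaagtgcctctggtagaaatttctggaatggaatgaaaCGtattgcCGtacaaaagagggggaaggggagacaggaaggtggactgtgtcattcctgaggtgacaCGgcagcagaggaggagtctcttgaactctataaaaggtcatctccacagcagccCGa
Pnrc2: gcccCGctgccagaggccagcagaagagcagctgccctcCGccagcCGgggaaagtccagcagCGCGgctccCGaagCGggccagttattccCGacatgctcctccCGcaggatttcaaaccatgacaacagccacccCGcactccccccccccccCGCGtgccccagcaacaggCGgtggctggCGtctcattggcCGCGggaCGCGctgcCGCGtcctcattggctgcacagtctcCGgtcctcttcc
CG was searched as the letters CG, which read the same on both strands. 1700012B09Rik and Krt20 hold 6 and 5 of them, and 50.5% and 55.5% of 27025 promoters of this length hold at least as many. Pnrc2 holds 21, and 16.1% of the promoters hold as many. Of the 15 genes with the largest rises 9 had a sequence, with a median of 5 CG, and of the 15 with the largest falls 13 had one, with a median of 13, beside a median of 6 over all promoters.

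Across all tested genes, 3509 were DEGs (16.1%), 1761 higher and 1748 lower in the FUT4-labelled line, and 6370 had an unadjusted p below 0.05. A log2 fold change beyond 1 was seen for 847 DEGs that rose and 600 that fell, and one beyond 3 for 215 and 131. No overlap between the lines was seen for 6973 tested genes (32.1%). Samples 1 and 3 of the FUT4-labelled line, both at passage 7, are the closest of the 24 pairs of samples within a line, although they differ beyond sampling noise. The number of DEGs fell to 1621 without sample 1 of the FUT4-labelled line, 1645 without its sample 3, 1911 without sample 2 of MC38-MOCK#2, and 1727 with samples 1 and 3 of the FUT4-labelled line averaged, an alternative chosen after seeing the data. Depth was estimated at 9232455 to 13105965 reads per library in the FUT4-labelled line and 8185810 to 12072139 in MC38-MOCK#2. Passage overlaps between the lines, and whether the samples came from separate cultures is not given for these lines, so p-values measure the spread between these samples, which may be technical.

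**Figure D2:**
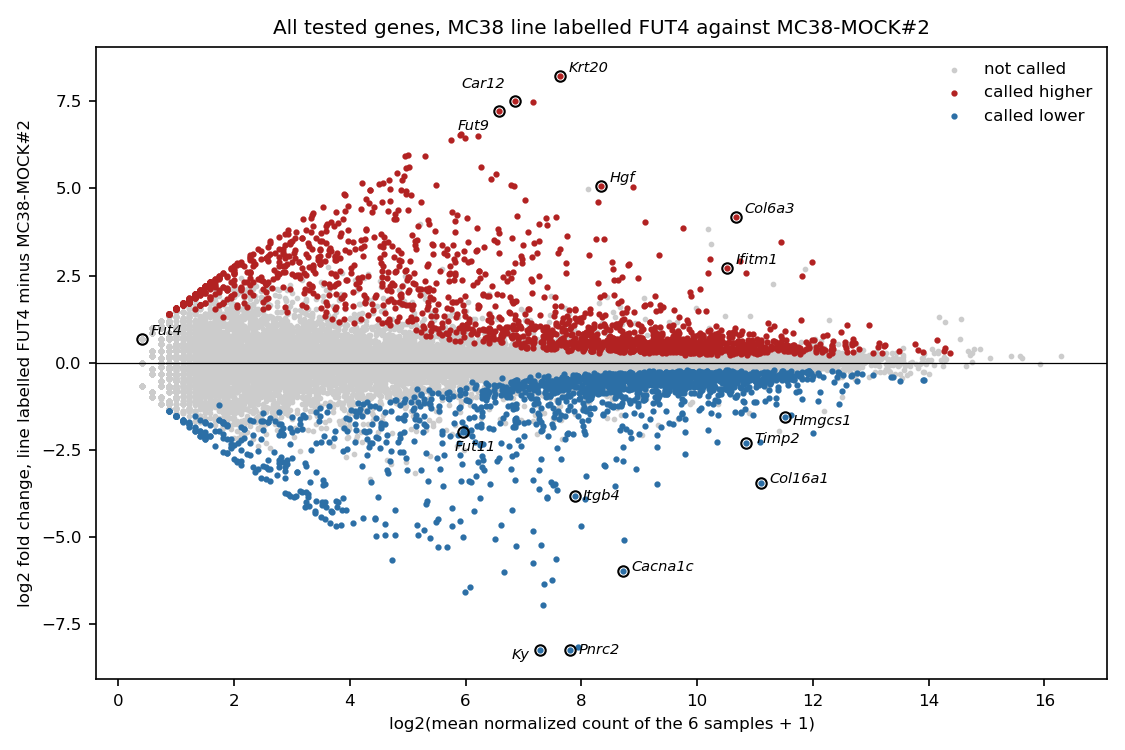
Log2 fold change (FUT4-labelled line minus MC38-MOCK#2, vertical axis) of the 21734 tested genes against log2 of their mean normalized count plus 1 (horizontal axis), with DEGs in red (1761 higher) and blue (1748 lower). Krt20 has the highest and Ky the lowest value of the labelled genes, and Fut4 sits at the left edge among genes that were not called.

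The largest rises were in genes that were nearly off in MC38-MOCK#2. Krt20, a keratin of differentiated intestinal epithelium, had 1, 0 and 0 normalized counts in MC38-MOCK#2 and 448, 263 and 468 in the FUT4-labelled line (ratio 1167, 95% exact interval 209 to 46139, limma adjusted p = 0.000132). It reached 30 to 44 in MC38-CMAS KO and at most 6 in the other lines. In bulk RNA, fewer expressing cells and less RNA per cell cannot be told apart. Car12, a membrane carbonic anhydrase, had 0, 0 and 1 against 239, 219 and 231 normalized counts (limma adjusted p = 0.000131). Akr1c18, which encodes 20α-hydroxysteroid dehydrogenase, had 1, 0 and 1 against 253, 352 and 251 (limma adjusted p = 0.000132). These 3 genes were at 44 or fewer normalized counts in all other 18 samples.

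The adhesion receptor gene Adgrg7 rose from 1, 0 and 0 to 117, 110 and 131 normalized counts, and the C-type lectin gene Clec4d from 1, 0 and 1 to 148, 145 and 141. Tmem45a (0, 2 and 0 against 141, 114 and 118) and Krt6a, an epithelial stress keratin (1, 0 and 0 against 122, 88 and 106), followed. For Syt13, a synaptotagmin gene, 4, 2 and 4 normalized counts stood against 195, 156 and 187, a log2 fold change of 5.41 (standard error 0.283, limma adjusted p = 0.000174). Esp15, an exocrine gland peptide gene, had 64, 48 and 69 in the FUT4-labelled line and 0 in each of the other 21 samples, MC38-MOCK#2 included, and was at least 58.9-fold higher. Rit2, a small GTPase gene, was at 0 in MC38-MOCK#2 and at 64, 73 and 49 in the FUT4-labelled line, but also reached 30 to 52 in MC38-CMAS KO. Lingo3, Tmem266, Mpzl2 and Cox7b2 rose to means between 54 and 76 from a single read or none per MC38-MOCK#2 library.

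Genes that fell furthest were at or near 0 in the FUT4-labelled line. Ky, a gene named for kyphoscoliosis and used in muscle, had 287, 277 and 368 normalized counts in MC38-MOCK#2 and 0 in all 3 FUT4-labelled samples, and was at least 316-fold lower (limma adjusted p = 7.56e-05). Pnrc2, which encodes a nuclear receptor coactivator that also acts in mRNA decay, had 344, 442 and 553 against 0, 0 and 2 (limma adjusted p = 0.000206), and was at 37 or more in every other sample. Colec12, a scavenger receptor collectin, had 433, 494 and 543 against 0, 4 and 0, and was also at most 2 in MC38-MOCK#1 and MC38-DKO. Cacna1c, the pore subunit of an L-type calcium channel, had 747, 799 and 954 against 8, 15 and 14, a log2 fold change of -6.00 (standard error 0.24, limma adjusted p = 7.79e-05).

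Among the falls were proteins that act outside the cell. Timp3, a metalloproteinase inhibitor bound to matrix, had 225, 249 and 359 against 1, 12 and 4 normalized counts. The sulfatase gene Sulf2, whose product trims heparan sulfate, had 312, 285 and 464 against 11, 0 and 7. Both genes were above 500 in MC38-WT and MC38-FUT9, so MC38-MOCK#2 was not the highest line for either. Pappa, a protease of IGF-binding proteins, had 336, 307 and 469 against 5, 4 and 12, and Mme, the peptidase neprilysin, 232, 268 and 465 against 2, 2 and 5. For these 2 genes the other 18 samples resembled the FUT4-labelled line, with at most 8 for Pappa and at most 46 for Mme. Fbln2, Megf6, Acot11, Fam180a, Arhgap30, Oaf and Hspa12b complete the 15 largest falls, with log2 fold changes between -6.97 and -5.29.

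**Figure D3:**
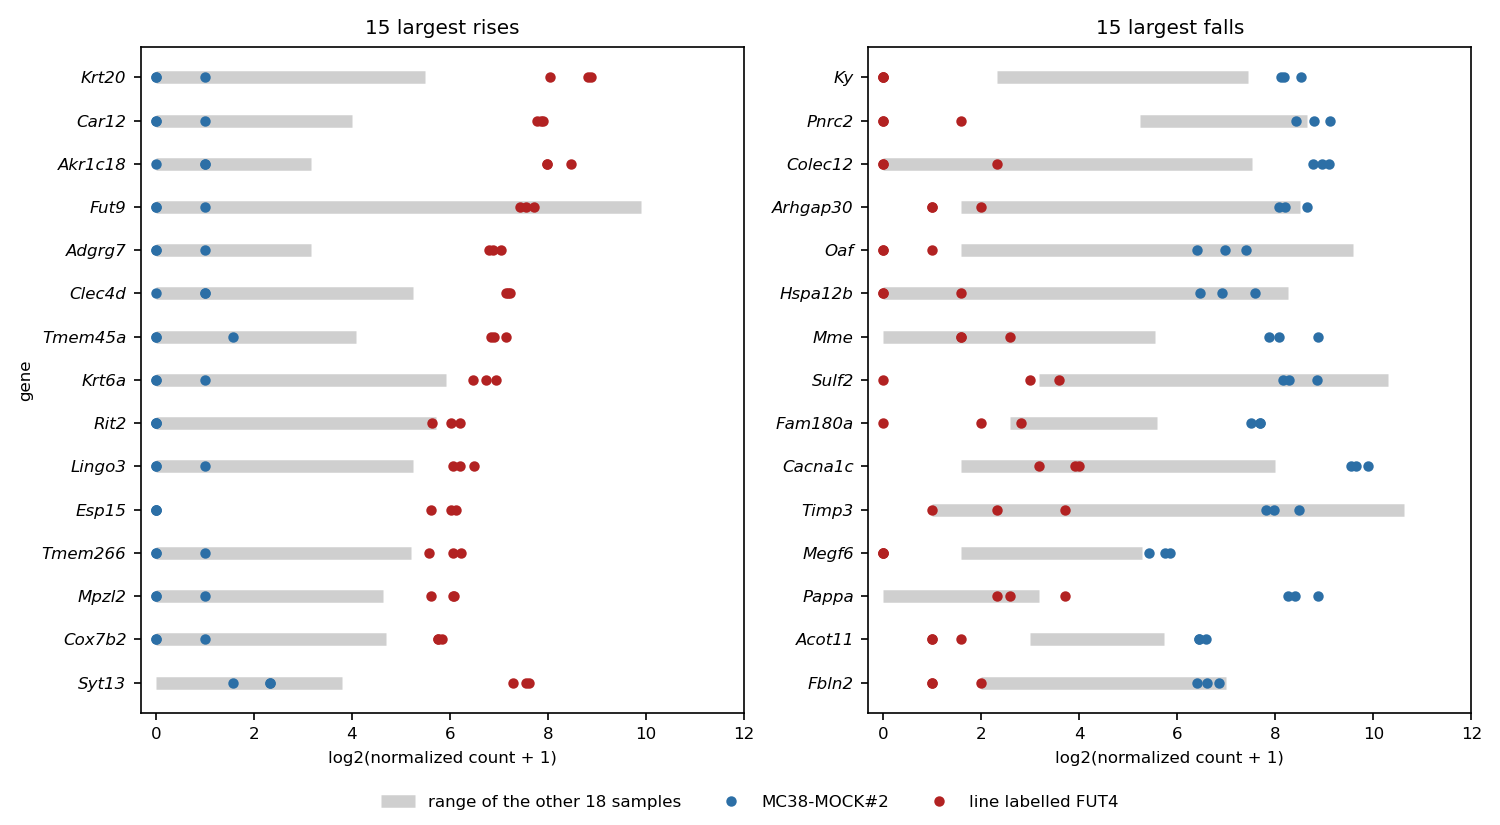
Log2 of the normalized count plus 1 (horizontal axis) for the 15 largest rises and the 15 largest falls among protein-coding DEGs (vertical axis). Red points are the 3 FUT4-labelled samples, blue points the 3 MC38-MOCK#2 samples and grey bars the range of the other 18 samples. For 13 of the rises the red points lie above all other samples, and for 5 of the falls below them. For 8 of the falls the blue points lie above all other samples.

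Which of both lines stands apart from the rest of the series was counted over all DEGs. All 3 FUT4-labelled samples lay above the other 21 samples for 449 of the 1761 genes that rose (25.5%), beside 2.51% of all tested genes. They lay below them for 366 of the 1748 that fell (20.9%, 2.13% of tested genes). All MC38-MOCK#2 samples lay below the other 21 for 191 of the genes that rose (10.8%, 1.13% of tested genes) and above them for 358 of those that fell (20.5%, 1.98% of tested genes). The DEGs were called on these same samples, so the shares among them describe how the differences divide between the lines and are no test. The median of the other 6 lines was nearer to MC38-MOCK#2 for 53.5% of the genes that rose and 51.7% of those that fell, beside 48.5% of all tested genes.

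Around the fucosylation step, genes of supply and acceptor chains moved both ways and mostly by less than a log2 unit. In GDP-fucose supply, 0 of 7 tested genes rose and 2 fell. Every count of list members here and below is to be set beside the 8.1% of all tested genes called higher and 8.04% called lower. Gmds, which encodes the enzyme that starts GDP-fucose synthesis from GDP-mannose, had 486, 539 and 488 against 337, 334 and 310 normalized counts (log2 fold change -0.62, limma adjusted p = 0.00327). Fuca1, a lysosomal fucosidase, fell by 0.53 (limma adjusted p = 0.0106). Of 19 genes for LacNAc and Lewis acceptor chains 4 rose and 3 fell, with a median log2 fold change of -0.06 beside 0.00 over all tested genes. B4galt4, a β1,4-galactosyltransferase gene, had 1, 0 and 1 against 28, 21 and 26 normalized counts (limma adjusted p = 0.00143), and MC38-MOCK#1 held 18 to 28. The main galactosyltransferase gene B4galt1 fell by 0.42 on the log2 scale (504, 517 and 549 against 389, 365 and 419 normalized counts), and B3gnt9 by 1.11. B3gnt3, Gcnt2 and Mgat4a rose by 0.74, 0.68 and 0.90. Leaving out sample 1 or 3 of the FUT4-labelled line, or sample 1 or 2 of MC38-MOCK#2, left 1 gene of the acceptor list called higher, and without sample 1 of the former or 2 of the latter 1 was called lower. In the supply list 1 was called lower without sample 3 of the FUT4-labelled line or sample 2 of MC38-MOCK#2.

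Sialyltransferases gave 4 rises and 2 falls among 10 tested genes. St6galnac4 and St6galnac6, which sialylate GalNAc residues of O-glycans and gangliosides, rose by 0.41 and 0.40, and St3gal5, the GM3 synthase gene, fell by 0.54 (limma adjusted p = 0.0108 to 0.0206). St8sia4 and St6gal1 were called at 4 or fewer normalized counts per sample. Leaving out sample 1 or 3 of the FUT4-labelled line or sample 2 of MC38-MOCK#2 left 1 called higher in this list and at most 1 called lower. Of 11 genes for mucin-type O-glycans, only Galnt1 was called, with a log2 fold change of -0.34 (limma adjusted p = 0.0459), and its call was lost without 5 of the 6 samples in turn.

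**Figure D4:**
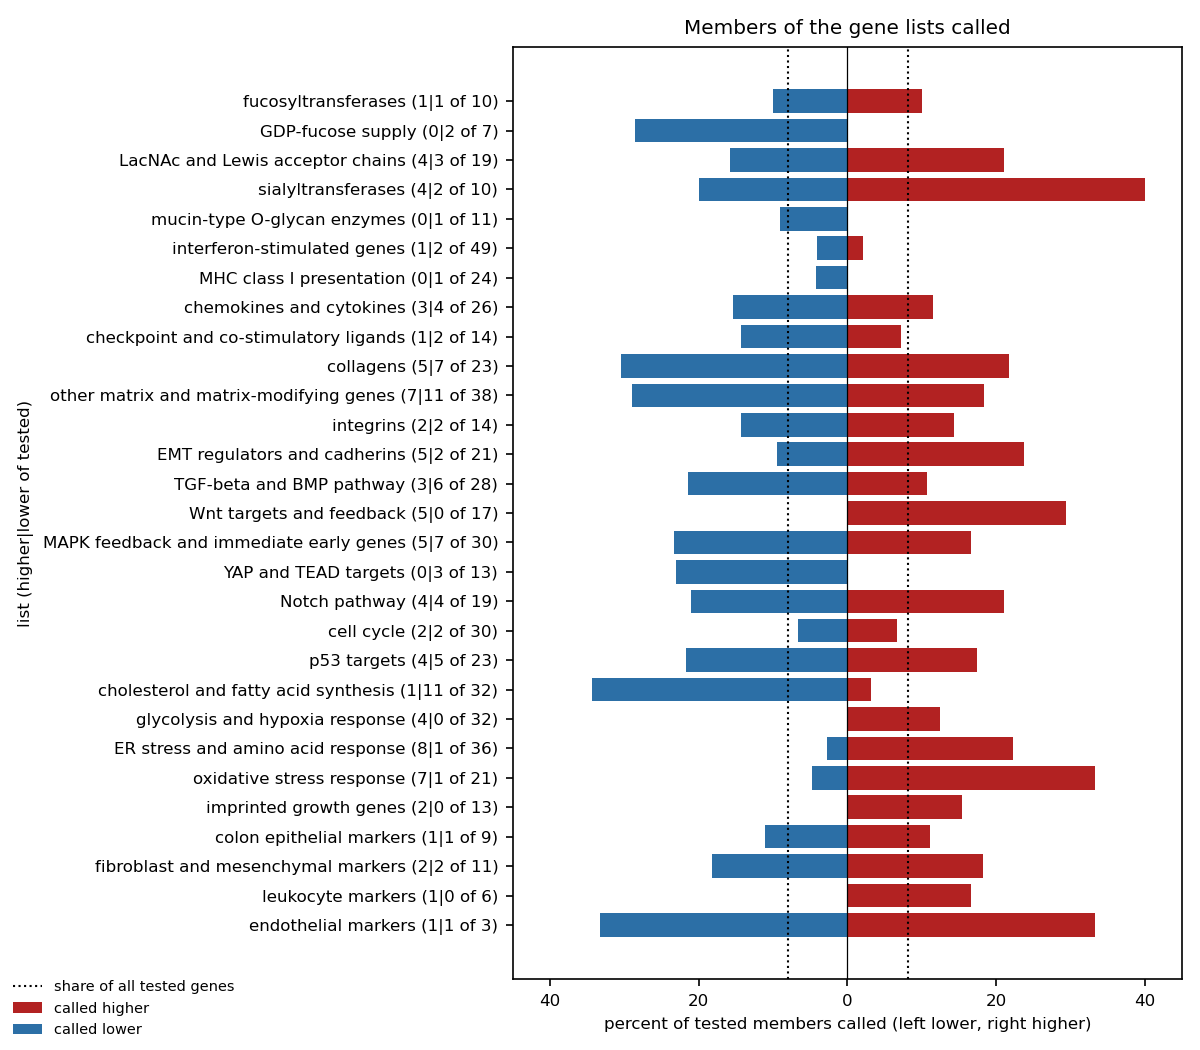
Percent of the tested members of each gene list that were called higher (red, right) or lower (blue, left) in the FUT4-labelled line, with the counts beside the list names. Dotted lines mark the shares over all tested genes, 8.1% and 8.04%. Collagens, matrix genes and cholesterol synthesis reach furthest left among lists of over 20 tested genes, and oxidative stress genes furthest right.

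Matrix genes differed in both directions. Of 23 collagens 5 rose and 7 fell (median log2 fold change -0.56), and of 38 other matrix and matrix-modifying genes 7 rose and 11 fell (median -0.10). Col6a3, a chain of the microfibrillar collagen VI, had 263, 128 and 144 against 3308, 2513 and 3476 normalized counts, a log2 fold change of 4.17 (standard error 0.273, limma adjusted p = 0.000318). Col6a2, a chain of the same collagen, went the other way, with 574, 491 and 1154 against 111, 63 and 123 (limma adjusted p = 0.00359). Col12a1 (136, 129 and 111 against 660, 858 and 599) and Col7a1, the anchoring fibril collagen (559, 414 and 265 against 1357, 1547 and 1581), rose. Col16a1, a fibril-associated collagen, had 4037, 3589 and 4504 against 386, 313 and 409, which is lower than in any other sample of the series (limma adjusted p = 7.56e-05). For Col6a3 the FUT4-labelled line was within the range of MC38-WT, MC38-CMAS KO and MC38-COSMC KO (2311 to 4292), and MC38-MOCK#1 and MC38-DKO were at 96 to 228.

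The tissue inhibitors of metalloproteinases also diverged. Timp2 had 2809, 3059 and 3355 against 612, 614 and 629 normalized counts, a log2 fold change of -2.31 (standard error 0.0775, limma adjusted p = 7.56e-05), below the other 18 samples. Timp1 rose from 787, 819 and 836 to 1603, 1427 and 1561 (limma adjusted p = 0.000498). Basement membrane genes did not move together: Lamb1 and Nid2 rose by 1.04 and 0.82, and the perlecan gene Hspg2 had 7022, 5074 and 5733 against 2851, 2492 and 2941 normalized counts. The elastic fibre genes Fbn1 and Fbln5 changed by 0.97 and -1.66. Without sample 1 or without sample 3 of the FUT4-labelled line, 3 of these matrix genes and 3 collagens were called higher. Collagens called higher were also 3 without sample 2 of MC38-MOCK#2, matrix genes called higher were 4 without sample 2 of the FUT4-labelled line or sample 1 or 2 of MC38-MOCK#2, and matrix genes called lower were 7 without sample 1 of the FUT4-labelled line.

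Of 14 integrins tested 2 rose and 2 fell, beside 8.1% and 8.04% of all tested genes. Only 1 was called lower without any 1 sample other than sample 1 of MC38-MOCK#2. Itga7, a laminin-binding α subunit, had 7, 14 and 13 against 266, 175 and 229 normalized counts (limma adjusted p = 0.000427), and Itga6 rose by 1.22 on the log2 scale. Itgb4, the partner of α6 in hemidesmosomes, had 396, 425 and 499 against 32, 23 and 35, a log2 fold change of -3.84 (standard error 0.185, limma adjusted p = 0.000132). The other 18 samples held 31 to 105 of Itgb4, so MC38-MOCK#2 was the line that stood apart. Of 21 regulators of epithelial-mesenchymal transition (EMT) and cadherins 5 rose and 2 fell. Cdh6 had 32, 27 and 35 against 423, 372 and 402 (limma adjusted p = 7.69e-05), with at most 136 in the other lines. Without sample 3 of the FUT4-labelled line 2 genes of the EMT list were called higher, and without its sample 1 or sample 1 of MC38-MOCK#2 3 were. The list had 1 called lower without any 1 sample other than sample 2 of the FUT4-labelled line.

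Esrp1, an epithelial splicing regulator, had 20, 23 and 16 against 352, 241 and 364 normalized counts (limma adjusted p = 0.000185). Grhl2, an epithelial transcription factor gene, was called at 1, 3 and 1 against 9, 6 and 9. Snai1, a transcription factor that drives EMT, had 704, 607 and 800 against 231, 283 and 259 (log2 fold change -1.44, limma adjusted p = 0.000827), and Twist1 fell by 0.43. The E-cadherin gene Cdh1 was at 2 or fewer normalized counts in all 6 samples. Vim, the mesenchymal intermediate filament gene, had 27120, 26201 and 21222 against 28322, 29214 and 28307 and was not called (limma adjusted p = 0.253).

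The cell type label was set against marker lists. Of 16 colon epithelial markers 12 were at 3 or fewer normalized counts in all 6 samples. Their summed level was 12 to 31 in MC38-MOCK#2 and 270 to 485 in the FUT4-labelled line, of which Krt20 alone was 263 to 468. The sum of 12 fibroblast and mesenchymal markers was 32862 to 37325 and 35217 to 35980, of which Vim made up most. In that list Pdgfrb (471, 581 and 1100 against 117, 117 and 135) and Col1a1 fell, and Dcn (4, 9 and 28 against 118, 46 and 125) and Fap rose, the last 2 with at most 1 call left without any 1 sample. Leukocyte markers summed to 29 to 61 and 56 to 68 normalized counts over 16 genes, and endothelial markers to 12 to 36 and 7 to 19 over 8 genes. Ptprc, the pan-leukocyte CD45 gene, had 0, 0 and 0 against 3, 5 and 1 normalized counts and was called (limma adjusted p = 0.0383), except without any 1 of 5 samples. Cdh5 (VE-cadherin) had 0, 0 and 3 against 10, 6 and 16 and was called higher, though not without any 1 of 5 samples. Vwf, another endothelial marker, had 9, 13 and 29 against 0, 0 and 0 and was called lower. The epithelial villin gene Vil1, at 3, 3 and 8 against 1, 0 and 0, was called lower, and not without any 1 sample. The part of other cells in these results was not tested.

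Signalling genes were called at the following levels. All 5 called members of the 17 tested Wnt targets and feedback genes rose, with a list median of 0.44, and the count stayed at 5 without any 1 sample. The 12 members that were not called differed in both directions, with log2 fold changes from -1.67 (Wnt5a) to 0.59 (Notum). Among them, Axin2 was at -0.23, Rnf43 at -0.60, Znrf3 at 0.14 and Lef1 at 0.25. Wnt7b, a Wnt ligand, was at 0 in MC38-MOCK#2 and at 25, 20 and 19 normalized counts in the FUT4-labelled line (at least 20.6-fold higher, limma adjusted p = 0.000485). Ccnd1 (cyclin D1) had 3119, 2937 and 3449 against 5123, 4625 and 5154, and Myc 1310, 1349 and 1182 against 1827, 2066 and 1808 (log2 fold changes 0.65 and 0.57, limma adjusted p = 0.00323 and 0.00513). Tcf7 rose by 0.93, and the Wnt inhibitor gene Dkk2 was called at 1, 0 and 0 against 11, 10 and 8. Besides Dkk2 and Wnt7b the risers are transcription and cell cycle regulators that other pathways also reach.

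The MAPK feedback and immediate early genes split into 5 that rose and 7 that fell among 30, beside 8.1% and 8.04% of all tested genes. Dusp1, a phosphatase of MAP kinases, had 707, 1058 and 1473 against 184, 178 and 206 normalized counts (log2 fold change -2.44, limma adjusted p = 0.00137). Fos (1658, 3392 and 5883 against 809, 435 and 836), Junb (2726, 4341 and 7132 against 1748, 1209 and 1766) and Egr2 (64, 221 and 580 against 25, 5 and 27), which code for transcription factors induced within minutes, also fell. These early genes varied several-fold within MC38-MOCK#2, with sample 3 highest, and leaving out sample 1 or 3 of the FUT4-labelled line or sample 2 of MC38-MOCK#2 left 2 genes of the list called lower. Without sample 2 of the FUT4-labelled line or sample 3 of MC38-MOCK#2 these were 3, and without any 1 FUT4-labelled sample or sample 2 of MC38-MOCK#2 3 were called higher. Fosl1 (976, 978 and 869 against 1887, 1680 and 1825), Dusp4 (219, 190 and 155 against 657, 529 and 639) and the growth factor gene Hbegf (157, 109 and 101 against 300, 439 and 304) rose. Among 13 YAP and TEAD targets 0 rose and 3 fell, with 1 called lower without sample 1 or without sample 3 of the FUT4-labelled line. Ccn1, a secreted matricellular protein gene that fell, had 3726, 7354 and 8791 against 1467, 1577 and 1545 (limma adjusted p = 0.005).

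Of 28 TGF-beta and BMP pathway genes 3 rose and 6 fell, beside 8.1% and 8.04% of all tested genes. Bmper, a BMP-binding protein gene, had 441, 370 and 695 against 25, 36 and 34 normalized counts (log2 fold change -3.91, limma adjusted p = 0.000325), and the BMP antagonist gene Grem1 had 636, 901 and 1044 against 235, 255 and 230. The coreceptor gene Tgfbr3 had 171, 149 and 704 against 26, 19 and 21, so the size of its fold rests in part on sample 3 of MC38-MOCK#2. Its call held without that sample and was lost without any 1 FUT4-labelled sample. The ligand genes Bmp5 (2, 2 and 0 against 30, 25 and 29) and Inhba (29, 17 and 27 against 103, 59 and 90) rose. In the Notch pathway 4 of 19 genes rose and 4 fell, beside the same shares of all tested genes. The ligand gene Jag1 and the target gene Hey1 rose, Jag1 from 395, 326 and 293 to 720, 712 and 674 and Hey1 from 31, 43 and 28 to 169, 208 and 145, and Rbpj, the DNA-binding partner of Notch, had 2636, 2770 and 3502 against 1076, 1072 and 976 (limma adjusted p = 0.000511). Hes1, another target, fell by 0.60. Without sample 1 or without sample 3 of the FUT4-labelled line 2 genes of the TGF-beta and BMP list were called lower, and 2 of the Notch list, the latter also without any 1 sample of MC38-MOCK#2. The TGF-beta and BMP list had 3 called lower without sample 1 of MC38-MOCK#2, and 1 called higher without sample 3 of the FUT4-labelled line.

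More sterol genes fell than rose. Of 32 genes of cholesterol and fatty acid synthesis 1 rose and 11 fell, with a median log2 fold change of -0.27. Hmgcs1, which makes HMG-CoA for the mevalonate pathway, had 3564, 4732 and 4855 against 1438, 1500 and 1436 normalized counts (log2 fold change -1.57, standard error 0.121, limma adjusted p = 0.000526). Mvk, Dhcr7 and Stard4, for 2 synthetic enzymes and a sterol carrier, fell by 0.61, 0.71 and 0.76. Genes called lower numbered 5 without sample 1 or without sample 3 of the FUT4-labelled line, 6 without sample 2 or 3 of MC38-MOCK#2, and 7 to 11 otherwise.

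More genes of protein folding and of redox balance rose than fell. Of 36 genes of the ER stress and amino acid response 8 rose and 1 fell (median 0.18), and of 21 oxidative stress genes 7 rose and 1 fell (median 0.22). The ER chaperone genes Hspa5 (16719, 16355 and 17665 against 22593, 23683 and 22215) and Hsp90b1 (14091, 13938 and 14253 against 20501, 25724 and 20065) rose by 0.43 and 0.64 on the log2 scale. Manf, a secreted ER stress protein gene, rose by 0.60 (limma adjusted p = 0.00132). The cystine transporter gene Slc7a11 had 487, 535 and 705 against 1397, 1006 and 1371 (limma adjusted p = 0.00679). Gsta4, a glutathione transferase gene, had 102, 131 and 184 against 1299, 928 and 1256 (log2 fold change 3.08, limma adjusted p = 0.000485), and the pentose phosphate genes G6pdx and Tkt rose by 0.52 and 0.50. Nqo1, a quinone reductase gene of the same oxidative stress list, fell by 1.11. Without sample 1 of the FUT4-labelled line 3 ER stress genes and 4 oxidative stress genes were called higher, and without its sample 3 these were 5 and 4. Without sample 2 of MC38-MOCK#2, 4 ER stress genes were called higher. Hsp90b1 and Tkt lie in stretches of chromosomes 10 and 14 where the median gene rose, described below. Neither was called after the median of each window of 10 Mb was removed.

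Few genes of interferon response and antigen presentation were called. Of 49 interferon-stimulated genes 1 rose and 2 fell (median -0.25), and of 24 genes of MHC class I presentation 0 rose and 1 fell (median -0.01), beside 8.1% and 8.04% of all tested genes. Ifitm1, a membrane protein that restricts virus entry, had 312, 293 and 607 against 2706, 2069 and 2821 normalized counts (limma adjusted p = 0.00149), and the other 18 samples held at most 823. Ifit2 and Gbp2 fell by 1.40 and 1.93, and Erap1, a peptide-trimming protease gene, by 0.54. Gbp2 was not called without any 1 of the 6 samples, nor was Erap1 without sample 3 of the FUT4-labelled line. The interferon list had 1 gene called lower without any 1 sample other than sample 2 of the FUT4-labelled line, and 2 called higher without sample 3 of MC38-MOCK#2. Without that sample the presentation list had 1 called higher and 3 lower. H2-K1 had 3250, 2864 and 4471 against 6262, 3929 and 6217 and was not called (limma adjusted p = 0.118). Summed interferon-stimulated genes ranged from 14502 to 36521 in MC38-MOCK#2 and from 15525 to 26439 in the FUT4-labelled line, so the ranges overlap. Many of these genes varied several-fold within both lines. Isg15 had 140, 113 and 896 against 531, 106 and 553 normalized counts, with a standard error of 0.933 on the log2 scale. The lack of a call thus does not show equal levels in both lines.

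Among 26 chemokine and cytokine genes 3 rose and 4 fell, beside 8.1% and 8.04% of all tested genes. Ccl7 and Ccl2, which attract monocytes, had 48, 24 and 47 against 316, 377 and 342 and 758, 686 and 1030 against 1424, 1715 and 1515 normalized counts (limma adjusted p = 0.000745 and 0.00886). Ccl2 was not called without any 1 FUT4-labelled sample or without sample 1 of MC38-MOCK#2, while Ccl7 kept its call each time. Vegfc, a lymphatic growth factor gene, rose by 2.64. The neutrophil chemokine gene Cxcl1 (267, 352 and 316 against 79, 153 and 95), Cx3cl1, Cxcl12 and Csf1 fell. Of 14 checkpoint and co-stimulatory ligands, Ulbp1, an NKG2D ligand gene, rose by 1.43 (138, 119 and 213 against 392, 444 and 396 normalized counts), and Lgals9 (galectin-9) and Raet1d fell. Lgals9 had 298, 339 and 813 against 61, 16 and 90, and its call was lost without any 1 of 5 samples. Raet1d was not called without any 1 of 4 samples, nor was Ulbp1 without sample 3 of the FUT4-labelled line. The list had 0 called lower without sample 1 or 3 of the FUT4-labelled line or sample 1 of MC38-MOCK#2, and 1 otherwise. Without sample 3 of the FUT4-labelled line 0 of the 26 genes were called lower, without sample 2 of MC38-MOCK#2 1 was, and without sample 1 of the FUT4-labelled line 2 were.

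Differences were not spread evenly along chromosomes. Among 11646 genes with a mean of at least 30 normalized counts on chromosomes 1 to 19 and X, 10.8% were called higher and 12.6% lower. On chromosome 14 38.2% of 395 genes were called higher, on chromosome 10 29.2% of 555, and on chromosome 16 28.6% of 360 were called lower. Over the stretch from 10 to 70 Mb of chromosome 14, the median log2 fold change of 285 genes was 0.41, and 143 were called higher and 9 lower. Fut11, which fell, lies within this stretch. In the next window, from 70 to 80 Mb, the median of 48 genes was -0.48, and 1 was called higher and 23 lower. These windows were chosen after seeing the values.

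The same stretches were read in every library as the median deviation of their genes, on the log2 scale, from the mean of the other 18 samples. For 10 to 70 Mb of chromosome 14 it was 0.39, 0.36 and 0.38 in the FUT4-labelled samples, between -0.05 and 0.00 in MC38-MOCK#2, and between -0.12 and 0.14 in the other 18 samples. For 70 to 80 Mb it was -0.32, -0.36 and -0.34 in the FUT4-labelled samples and 0.05 to 0.20 in MC38-MOCK#2. The other 18 samples ranged there from -0.35 to 0.26, so similarly low values were also seen outside the FUT4-labelled line. On chromosome 13 from 110 to 120 Mb, 19 of 31 genes were called lower, and the deviation was -0.55, -0.42 and -0.49 against 0.01 to 0.08 in MC38-MOCK#2, and down to -0.28 in the other samples. Chromosome 5 held 2 such stretches, from 30 to 50 Mb (median log2 fold change -0.31, 40 of 105 genes called lower) and from 90 to 100 Mb (-0.49, 16 of 33). In the stretches of chromosome 10 (0 to 30 and 60 to 100 Mb) the median was 0.28 in each, and the deviations of the FUT4-labelled line, 0.16 to 0.23, lay within the range of the other 18 samples. The 30 to 60 Mb stretch of chromosome 16 had a median of -0.23, with 31 of 125 genes called lower. On the same chromosome the windows from 0 to 10 and 10 to 20 Mb had medians of -0.27 and -0.31. The window from 130 to 140 Mb of chromosome 4 had a median of -0.35, with 58 of 126 genes called lower and 3 higher. Col16a1, Hspg2, Fuca1 and Pnrc2 lie in it. From 20 to 30 Mb of chromosome 9 the median was -0.40, with 29 of 68 genes called lower. DNA was not measured, so copy number and regional transcription cannot be told apart. After the median of each window was removed, an alternative chosen after seeing the data, 3029 DEGs were left. Fuca1 was then not called, while Col16a1, Hspg2 and Pnrc2 kept their calls.

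**Figure D5:**
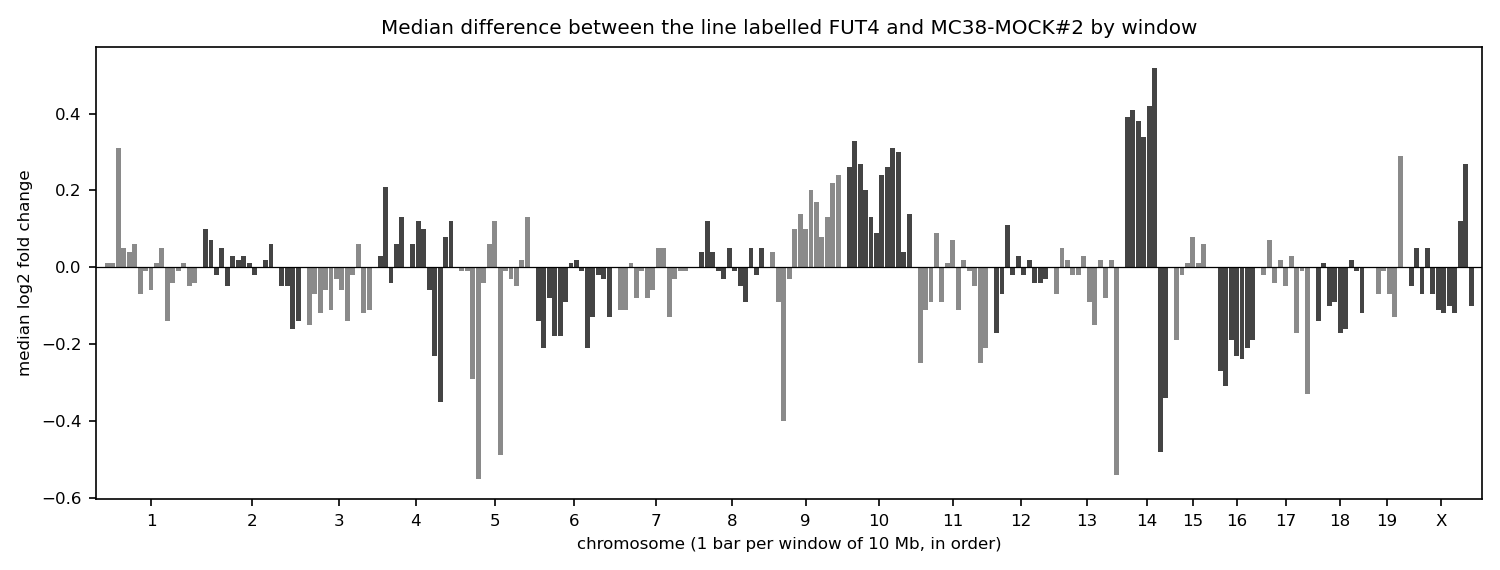
Median log2 fold change (FUT4-labelled line minus MC38-MOCK#2, vertical axis) of 232 windows of 10 Mb with at least 15 genes each, in order along chromosomes 1 to 19 and X (horizontal axis). Most windows are near 0 (median absolute value 0.07), while 39 reach 0.2 in either direction, with chromosome 14 rising to 0.52 before it turns negative.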

How the data were processed

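PolyA RNA was sequenced as single reads of 50 bases from stranded libraries. Reads were aligned to GRCm38 with HISAT2 2.0.4 and counted per gene with featureCounts (Subread 1.5.0-p3), and the authors scaled the counts for library size and TMM with edgeR 3.18.1. The deposited table holds the unit score, that is scaled counts rounded to whole numbers, so no count model was fitted. Its 13 mitochondrially encoded genes are at 0.

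Log2 of the value plus 1 was tested with limma 3.58.1 in R 4.3.3 (mean-variance trend) on the 3 samples of either line, for genes with at most 4 zeros, and genes under a Benjamini-Hochberg adjusted p of 0.05 were DEGs. The members, the 30 gene lists and the rule for named genes were chosen with earlier results of these data known. The rule takes fucosyltransferases, protein-coding genes within 500 kb of Fut4, the 15 largest changes of either direction (protein-coding DEGs, no overlap, mean of at least 50 in the higher line) and up to 6 called members per list and direction. Hgf (in a plot), H2-K1, Cdh1 and Vim were named after their values were seen. Some genes that the rule takes are not reported here.

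Each library's factor was estimated from the spacing of its values, giving 0.86 to 1.33 normalized counts per read. The estimate and the test were tried on data made with known answers, where a first form of the estimate failed and was changed. Floors are 3 reads over 3 libraries, and floors and intervals cover counting error only. Positions follow GENCODE vM21. Alternatives were other pseudocounts, filters, scalings, fits and thresholds, and leaving out each sample.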

Additional observations from a re-analysis of the deposited data

How the results depend on the processing

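Pseudocounts of 5 and 0.5, a mean of at least 10, no filter, equal totals, median-of-ratios scaling, a robust fit, all 8 lines in 1 fit and passage as a covariate kept the count of 3509 DEGs within 1.5 times. Without a trend it was 2270, of which 1040 were lower. With an absolute log2 fold change above 1 it was 1447 (847 higher, 600 lower). With samples 1 and 3 of the FUT4-labelled line averaged, chosen after seeing the data, it was 1727 (903 higher, 824 lower). Leaving out each sample in turn gave 1621 to 3112 DEGs, 845 to 1712 higher and 776 to 1400 lower. With the replicate number as a replicate block it was 1756 (900 higher, 856 lower). Same-numbered samples correlated across 13445 genes with r of -0.113, 0.198 and 0.155, so the numbers were not taken to pair the samples.

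The call of Fut9 held under every alternative, with log2 fold changes from 5.18 (pseudocount of 5) to 8.03 (pseudocount of 0.5) and an adjusted p of 0.0254 from limma with the replicate block. Fut4, with at most 1 normalized count, was called only without sample 2 of the FUT4-labelled line (fitted value 1.00, which is no bound), and its fitted values without a single sample were 0.67 to 1.00. It could not be tested without sample 1 or 3 of that line or with a mean of at least 10. Of 176 named DEGs, 95 kept their call under every alternative, among them all 30 of the largest changes. Directions reversed for Bmp1 with window medians removed (0.09), for Pofut2 with window medians removed (-0.05), and for Pofut1 without sample 2 (-0.02) or sample 3 (-0.01) of MC38-MOCK#2 (range without a single sample -0.02 to 0.11). Neither Pofut gene was called. The causes of these moves were not tested. Depths of 8185810 to 13105965 reads limit what can be said of genes at a few reads per library, such as Fut4.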

Other observations

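Of 33 glycolysis and hypoxia response genes, 32 were tested, and 4 were called higher and 0 lower in the FUT4-labelled line, with a median log2 fold change of 0.16. Beside Car12, these were the hexokinase gene Hk2 (945, 729 and 1044 against 1367, 1226 and 1303 normalized counts), the ER oxidoreductase gene Ero1l and the collagen prolyl hydroxylase gene P4ha1, with log2 fold changes of 0.53, 0.90 and 0.63. Without sample 1 or 3 of the FUT4-labelled line or sample 1 or 2 of MC38-MOCK#2 1 gene of the list was called, and without sample 3 of MC38-MOCK#2 6 were. Of 13 imprinted growth genes tested, Cdkn1c, a cyclin-dependent kinase inhibitor gene, had 10, 3 and 1 against 72, 63 and 63 normalized counts, and Plagl1 rose by 0.46 on the log2 scale (limma adjusted p = 0.00606 and 0.0262). Neither was called without sample 1 or without sample 3 of the FUT4-labelled line, and 1 gene of the list was called higher without its sample 2 or sample 2 of MC38-MOCK#2.

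Of 30 cell cycle genes 2 rose and 2 fell, all by less than 0.5 on the log2 scale, beside 8.1% and 8.04% of all tested genes, with Cdk1 at 0.37 and Mcm4 at -0.47. None was called without sample 1 or without sample 3 of the FUT4-labelled line, and 0 were called lower without sample 2 of MC38-MOCK#2. Of 23 tested genes of a p53 list, which holds Trp53 as well as its targets, 4 rose and 5 fell, beside the same shares of all tested genes. Trp53 itself had 1849, 1776 and 1573 against 2479, 2411 and 2599 normalized counts (limma adjusted p = 0.00535), and its target Cdkn1a rose by 0.70, while the sestrin gene Sesn1 had 606, 737 and 786 against 278, 330 and 287 (limma adjusted p = 0.0012). Eda2r, a receptor gene, rose by 2.59 and Ddit4l fell by 3.40. The p53 list had 2 called higher without sample 1 or 3 of the FUT4-labelled line or sample 1 or 2 of MC38-MOCK#2, and 3 called lower without sample 3 of the FUT4-labelled line. Cdkn1a was not called without any 1 of 5 samples.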
